A study of Mus musculus with 12 samples.

Results

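The enzymes that cut the extracellular matrix and the proteins that hold them in check were examined in cultured mouse stromal cells from 3 tissues. The set comprised every probe annotated to a matrix metalloproteinase (Mmp), an ADAMTS protease or ADAMTS-like protein, a tissue inhibitor of metalloproteinases (Timp), the secreted serine proteases Htra1 and Htra3, or the procollagen C-proteinase enhancers Pcolce and Pcolce2. It held 96 of the 45281 probe entries on the array, under 76 identifiers and 50 gene symbols of 18889 named genes. Members were taken by their symbol in the platform annotation. Single-colour Illumina bead arrays carried total RNA from Mus musculus cells in 3 groups of 4 arrays, which the series calls biological replicates. Bone marrow gave mesenchymal stem cells (MSC), the classical fibroblast-like marrow population that can form bone, fat and cartilage. Heart and kidney each supplied cells labelled MSC-like. The labels name no strain, age, sex, passage, treatment or allele for any group. Nothing tells separate animals or litters apart, so p-values measure only the spread between these samples.

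Matrix metalloproteinases are zinc enzymes that are made as inactive precursors and, once activated, cleave collagens, laminins and other matrix proteins. Timp proteins bind the active site of these enzymes and block it, and Timp3 also blocks several ADAMTS proteases. ADAMTS proteases cut large proteoglycans such as versican or process procollagen, whereas ADAMTS-like proteins lack the protease domain and bind to matrix fibres. In stromal cells of marrow, heart and kidney this system sets how fast matrix is laid down and removed.

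Defining markers of stroma were present on the arrays of all 3 groups. All 11 MSC and stromal marker genes were detected on every heart array, and 10 of them on every array of the other tissues. Nt5e (CD73) was the exception, with detection on 0 arrays in bone marrow and on 1 in kidney. A probe was counted as detected where its detection fraction exceeded 0.95. Of 13 macrophage and monocyte genes, 8 were detected on no array, among them Ptprc, Itgam, Adgre1 and Tyrobp, while Csf1r, Cd14 and Lyz2 were detected on all 12. Of 8 endothelial genes, Kdr and Vwf were detected on no array, whereas Emcn was detected on all 4 kidney arrays and Esam on all 4 heart arrays, and each on 0 arrays of the other tissues. Of 8 epithelial and mesothelial genes, Epcam, Krt18 and Msln were detected on no array, while Krt8 and Krt19 were detected on all 12 and Cdh1 missed 1 heart array. The cardiac myosin genes Myh6 and Myl7 were detected on no array. The part of such cells in the differences below was not tested. Between 18635 and 19792 probe entries were detected per array. Bone marrow replicate 1 had the lowest mean raw intensity, 754 against 874 to 1066 on the other 11 arrays. It was the lowest of the 4 bone marrow arrays for 16 of the 34 protease and inhibitor genes tested and the highest for 11. Its mean correlation with the other bone marrow arrays, across genes, was 0.9862, against 0.9906 to 0.9914 for those arrays. In such cultures a smaller share of expressing cells and less RNA per cell cannot be told apart.

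Of the 50 protease and inhibitor genes, 26 (52%) were detected on all 12 arrays, against 45.1% of all named genes, and 15 (30%) were detected on no array, against 34.6%. Heart had 29 genes detected on all 4 arrays, and bone marrow and kidney had 28 each. The 15 genes detected on no array were Mmp1b, Mmp7, Mmp8, Mmp12, Mmp20, Mmp21, Mmp25, Adamts3, Adamts14, Adamts18, Adamts19, Adamts20, Adamtsl1, Adamtsl2 and Timp4. Several of these belong to other cell types as background, including Mmp8 of neutrophils, Mmp12 of macrophages, Mmp25 of leukocytes and Mmp20 of enamel-forming cells. A further 9 genes were detected on some arrays. Mmp16 was found on 4 heart and 3 kidney arrays and on 0 from bone marrow. Mmp10 missed 1 bone marrow array and Mmp9 missed 1 heart array. Adamts16 was found on 3 bone marrow arrays and on 1 array of each other tissue, and Adamts8 on 3 bone marrow arrays and 1 kidney array. Adamts13, Adamts15, Adamts17 and Mmp19 completed this group, with 1 to 4 arrays in each tissue. A gene not detected here may still be expressed below the reach of its probe.

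**Figure D1:**
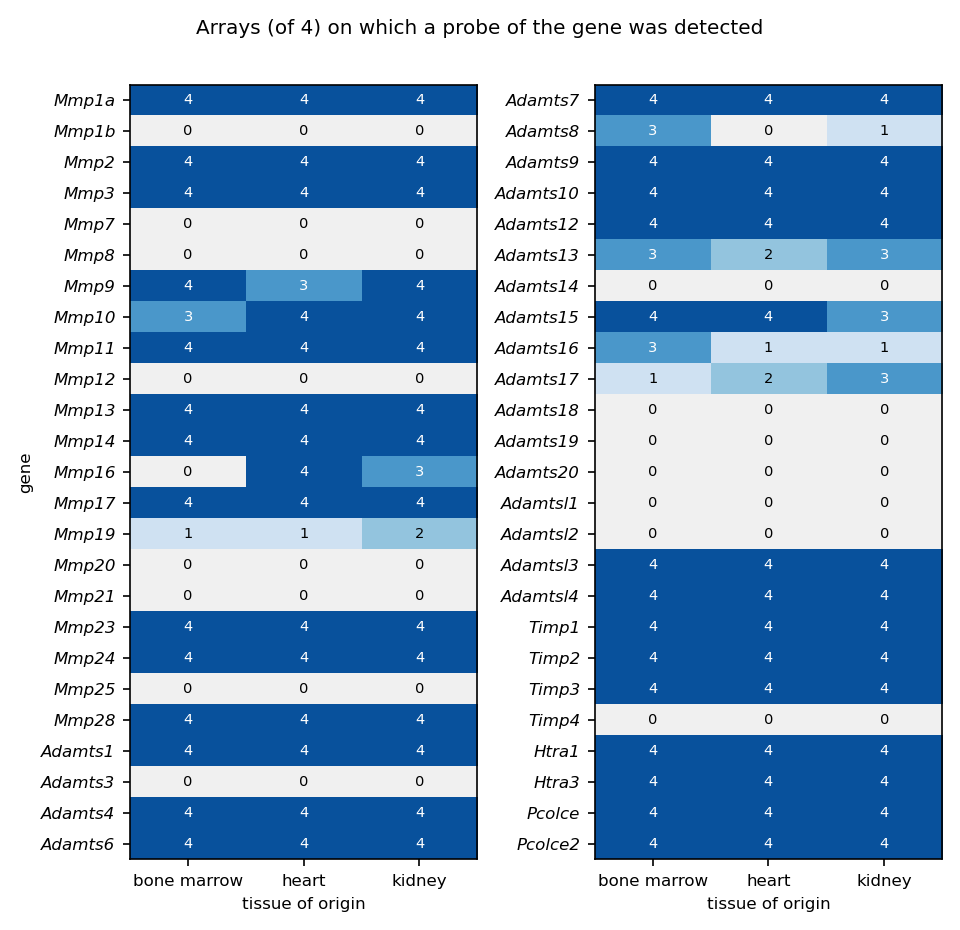
Number of arrays, of 4 per tissue of origin, on which at least 1 probe of each of the 50 genes was detected. Darker cells stand for more arrays, 26 genes read 4 in every tissue and 15 read 0 throughout.

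Each gene was next compared between tissues through its brightest retained probe, where a probe was retained if detected on at least 4 of the 12 arrays. This left 34 of the 50 genes and 53 of the 96 entries, and a gene bright in only 1 tissue could pass through that tissue alone. Calls were made at a Benjamini-Hochberg adjusted p under 0.05 over all 10797 genes, from limma's moderated linear model with 4 arrays per tissue. Differences are on the log2 scale of normalized intensity, with their SE.

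In heart cells 20 of the 34 genes (58.8%) differed from bone marrow MSC, where 56% of all genes were called. Of these 11 were higher (32.4%, against 26.4% of all genes) and 9 lower (26.5%, against 29.6%). At least 2-fold, 8 were higher (23.5%, against 8.41%) and 3 lower (8.82%, against 5.59%), or 32.4% in all against 14%. In kidney cells 20 genes differed from bone marrow MSC, where 44.2% of all genes were called, 14 higher (41.2%, against 19.9%) and 6 lower (17.6%, against 24.3%). The 6 lower genes were Adamts1, Adamts4, Adamts7, Adamtsl3, Htra3 and Pcolce. At least 2-fold, 6 were higher (17.6%, against 4.9%) and by limma 0 lower (3.56% of all genes), or 17.6% in all against 8.46%. Between kidney and heart cells 21 genes differed (61.8%), where 49% of all genes were called, 9 higher in kidney (26.5%, against 24.9%) and 12 lower (35.3%, against 24.1%). At least 2-fold, 6 were higher (against 3.86% of all genes) and 6 lower (against 6.96%), or 35.3% in all against 10.8%. Any pair of these comparisons shares the 4 arrays of a tissue, so their counts are not independent.

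The arrays of the 2 tissues did not overlap for 19 of the 34 genes in heart against bone marrow, 18 in kidney against bone marrow and 21 in kidney against heart, beside 50.2%, 38% and 47% of all genes. Counted by probe entry, 32, 28 and 33 of 53 were called, beside 51.6%, 39.2% and 43.8% of all retained entries. With no detection filter, 21 of the 50 genes were called in each comparison (42%), beside 31.9%, 24.3% and 27% of all named genes. The median difference of the 34 genes was 0.01 for heart against bone marrow, 0.10 for kidney against bone marrow and 0.05 for kidney against heart, beside -0.03, -0.04 and 0.02 over all genes. The median absolute difference was 0.49, 0.38 and 0.53, beside 0.35, 0.27 and 0.29. By the F test over the 3 tissues, 26 of the 34 (76.5%) differed, where 68.3% of all genes did. Among the 25 genes whose probe was detected on all 12 arrays, the calls numbered 18, 19 and 20 in the same order of comparisons, where 61.3%, 49.4% and 53.9% of all such genes were called. For 9 of the 34 genes no array of any tissue overlapped the range of another tissue, which held for 15.4% of all genes. The order was kidney above bone marrow above heart for 4 of them, namely Htra1, Pcolce2, Adamts6 and Adamts12, an order found in 1.3% of all genes. It was heart above kidney above bone marrow for Adamts9, Adamtsl4 and Timp2 (3.87% of all genes), heart above bone marrow above kidney for Adamtsl3 (2.16%), and bone marrow above heart above kidney for Pcolce (1.38%).

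**Figure D2:**
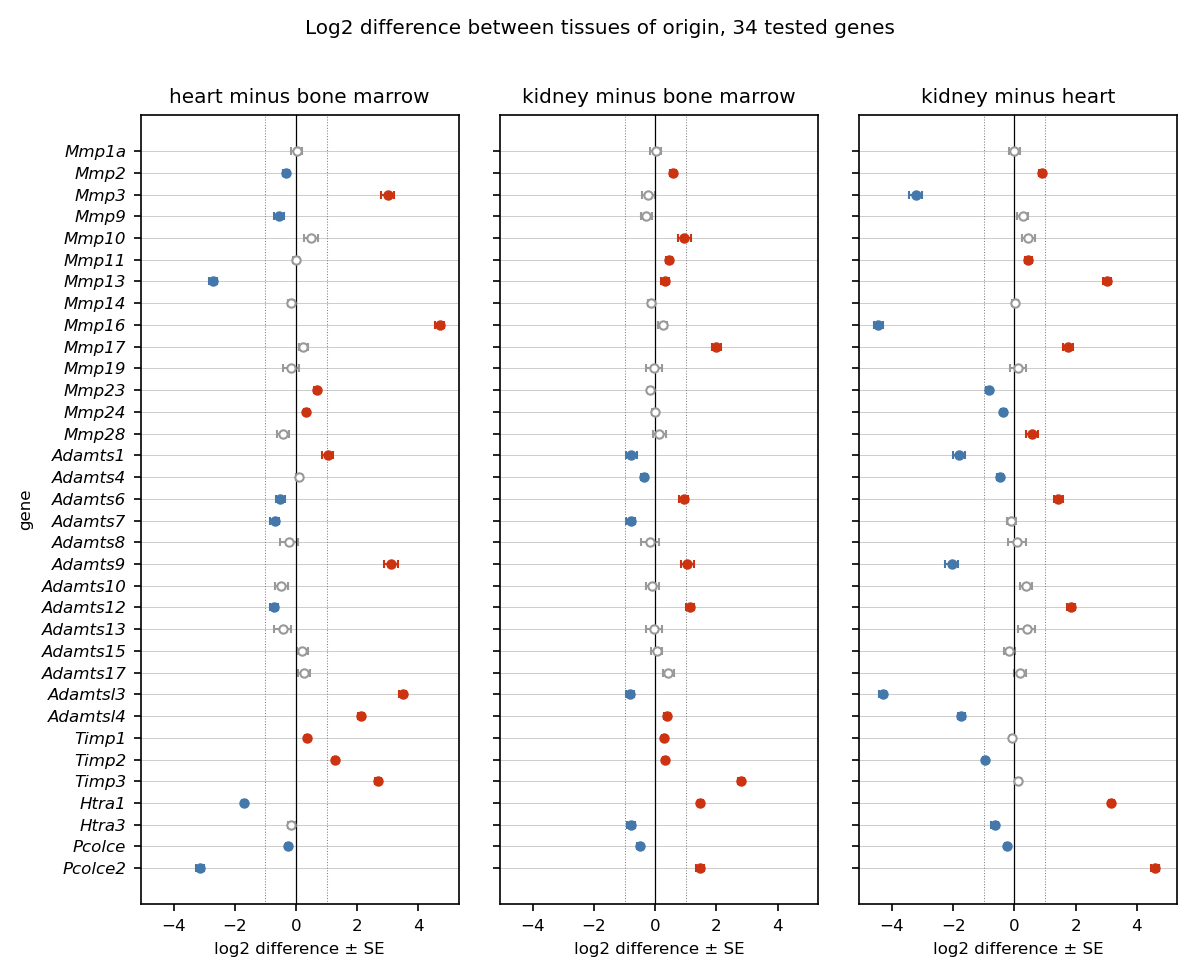
Log2 difference in normalized intensity ± SE (limma, 4 arrays per tissue) for the 34 tested genes in each comparison. Red points are called higher, blue points called lower and open grey points not called, and dotted lines mark 2-fold, which Mmp16, Adamtsl3 and Pcolce2 exceed most. Points are fitted differences of the brightest probe, also where a tissue was not detected and the text gives a bound, as for Mmp16. The other retained Adamtsl3 entry gave smaller differences.

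Of the inhibitors, Timp3 was about 6-fold to 7-fold higher in heart and kidney cells than in bone marrow MSC, and Timp2 was highest in heart cells. Timp1 was higher in both organ populations by less than 2-fold, and Timp4 was not detected. Timp3 protein, unlike the other Timps, is held in the matrix.

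Timp3 had log2 intensities of 11.88, 11.34, 11.35 and 11.35 on bone marrow replicates 1 to 4. On the heart arrays the Timp3 levels were 14.02, 14.15, 14.28 and 14.17, and on the kidney arrays 14.36, 14.22, 14.23 and 14.34. Every heart and kidney array lay above every bone marrow array, and heart and kidney overlapped. The log2 difference was 2.68 ± 0.10 for heart minus bone marrow (6.39-fold, adjusted p = 1.38e-14) and 2.81 ± 0.10 for kidney minus bone marrow (7.01-fold, adjusted p = 1.44e-14). Kidney minus heart was 0.13 ± 0.10 and did not pass (limma adjusted p = 0.287). Without bone marrow replicate 1, which stood above the other bone marrow arrays, the differences from bone marrow were 2.80 and 2.93. A second, dimmer Timp3 probe gave 3.16 and 3.50, and the remaining entry was detected on 3 arrays in all and was not tested. Of 7 muscle markers, 5 were tested, and 4 of them were higher than in bone marrow both in heart and in kidney, where 26.4% and 19.9% of all genes were. Acta2 was the exception (0.01 ± 0.06 and 0.12 ± 0.06, limma adjusted p = 0.89 and 0.12). Myh11 and Des were detected on 0 bone marrow arrays and met the detection filter through heart and kidney alone. A difference was thus built into their passing, and the bone marrow level of the list includes their undetected readings. The 5 genes had a mean log2 level of 9.49 to 9.58 on bone marrow arrays. On heart arrays it was 11.48 to 11.68 and on kidney arrays 12.71 to 12.83. Between kidney and heart, 3 of the 5 were called higher in kidney. Myh11 (0.24 ± 0.15) and Acta2 (0.11 ± 0.06) were not called there (limma adjusted p = 0.198 and 0.152). Myh6 and Myl7 of that list were detected on no array, and the part of the muscle programme in the Timp3 difference was not tested.

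Timp2, which blocks metalloproteinases and in complex with Mmp14 also assists the activation of the Mmp2 precursor, had bone marrow levels of 14.02, 14.19, 14.10 and 14.05 (log2 intensity). The heart levels of Timp2 were 15.45, 15.29, 15.31 and 15.40, and the kidney levels 14.28, 14.46, 14.42 and 14.46. The 3 tissues did not overlap. Timp2 was higher in heart than in bone marrow by a log2 of 1.27 ± 0.06 (adjusted p = 1.65e-12) and in kidney by 0.31 ± 0.06 (adjusted p = 0.000503), and kidney minus heart was -0.96 ± 0.06 (adjusted p = 2.05e-10). Timp1, a soluble inhibitor, had bone marrow levels of 15.39, 15.30, 15.34 and 15.43, heart levels of 15.71, 15.71, 15.67 and 15.78, and kidney levels of 15.67, 15.70, 15.68 and 15.52. Bone marrow lay below both other tissues on every array, while heart and kidney overlapped. The Timp1 difference from bone marrow was 0.35 ± 0.06 in heart (adjusted p = 3.32e-05) and 0.28 ± 0.06 in kidney (adjusted p = 0.00066). Raw Timp1 signals reached 59610.1 in heart, near the highest signal of any probe on an array (57988.5 to 64071.3), and how far large differences are compressed there was not tested.

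**Figure D3:**
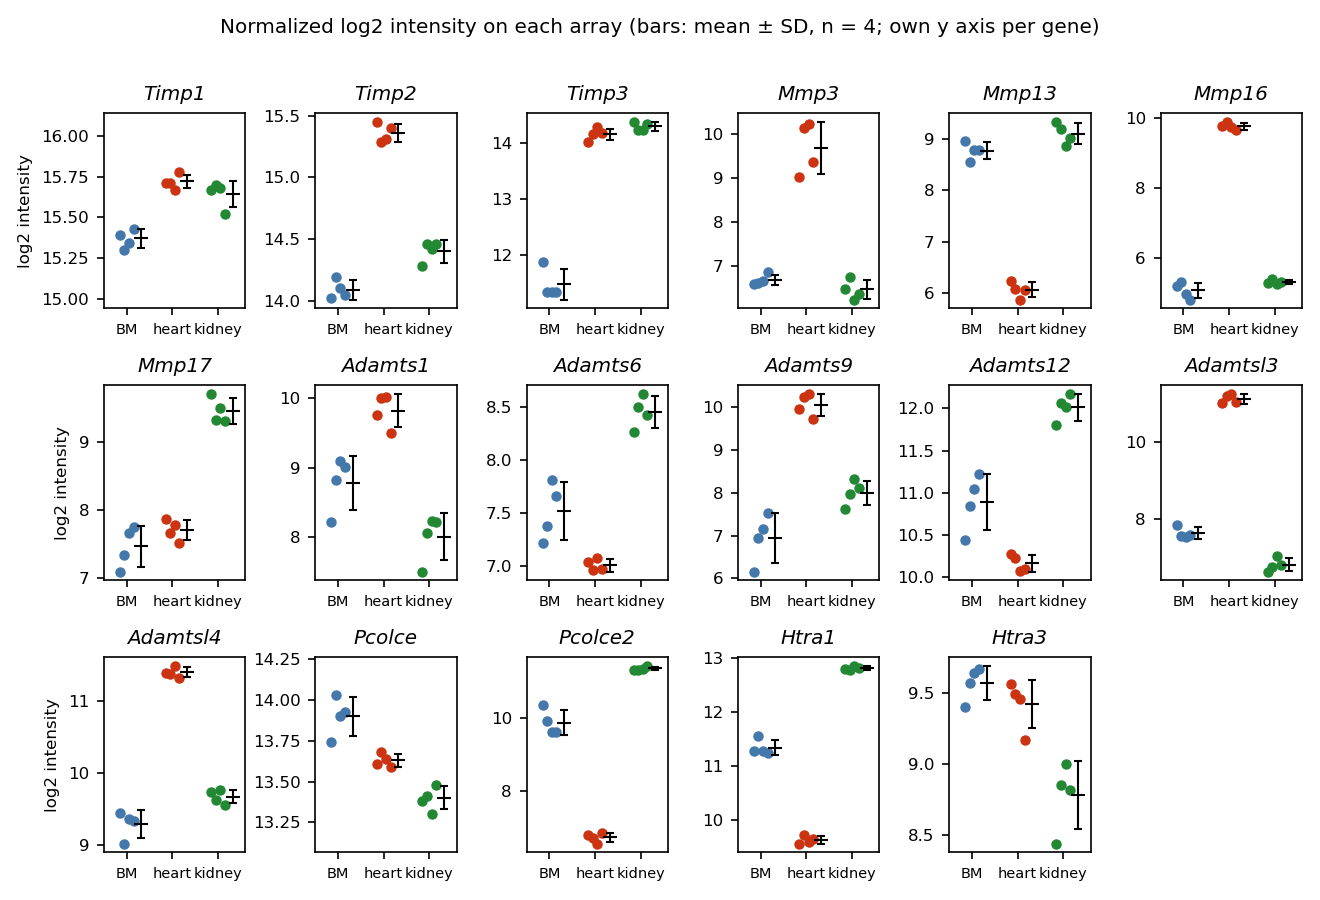
Normalized log2 intensity on each of the 12 arrays for 17 genes, with 1 point per array and the mean ± SD (n = 4) of each tissue beside it; BM is bone marrow and every gene has its own y axis. Timp3 separates both organ populations from bone marrow, Mmp3, Mmp16, Adamts9 and Adamtsl3 are high in heart, and Htra1 and Pcolce2 run from kidney down to heart.

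A cluster of metalloproteinase genes on chromosome 9 held Mmp3 and Mmp10, the first and second stromelysins, and several collagenases, and its members differed from each other in where they were high. In RefSeq (GRCm38.p6) the 9 genes of the set in this cluster lie in the order Mmp13, Mmp12, Mmp1b, Mmp3, Mmp1a, Mmp10, Mmp8, Mmp20 and Mmp7. Mmp3 was 8-fold higher in heart cells than in bone marrow MSC, Mmp13 was 6.52-fold lower, Mmp10 was higher in kidney cells and Mmp1a did not differ by the test in any comparison. The other 5 were detected on no array.

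The start regions of the 4 tested cluster genes are shown because AP-1, a transcription factor of growth and stress signalling, is a textbook regulator of these genes. Windows of 300 bases, 250 before and 50 after each annotated start, were searched on both strands for the AP-1 site TGAGTCA, the TATA box TATAAA and the GC box GGGCGG. No matches overlap in the stretches printed. Each line gives the 120 bases before the start, 5′ to 3′ on the plus strand of GRCm38.p6 from RefSeq, with these 3 motifs in capitals.
Mmp13, chr9:7272394-7272513: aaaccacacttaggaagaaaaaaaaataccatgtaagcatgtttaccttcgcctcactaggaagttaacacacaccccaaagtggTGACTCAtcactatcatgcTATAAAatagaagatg
Mmp3, chr9:7445702-7445821: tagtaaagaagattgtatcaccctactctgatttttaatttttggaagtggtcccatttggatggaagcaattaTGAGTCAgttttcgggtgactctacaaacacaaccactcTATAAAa
Mmp1a, chr9:7464021-7464140: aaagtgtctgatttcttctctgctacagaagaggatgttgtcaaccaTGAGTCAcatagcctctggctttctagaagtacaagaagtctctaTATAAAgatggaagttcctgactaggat
Mmp10, chr9:7502222-7502341: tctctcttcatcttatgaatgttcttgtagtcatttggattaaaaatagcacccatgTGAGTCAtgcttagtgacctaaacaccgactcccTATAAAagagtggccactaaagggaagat
For contrast, the same stretch of Timp3 holds a GC box and neither of the other motifs.
Timp3, chr10:86300292-86300411: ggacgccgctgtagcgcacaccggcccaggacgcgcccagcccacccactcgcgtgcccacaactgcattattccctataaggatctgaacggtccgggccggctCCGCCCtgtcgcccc

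All 4 tested cluster genes held both an AP-1 site and a TATA box in the window. Across the set, 36 of 50 genes had at least 1 window, and 7 of the 39 windows held the AP-1 site, all in the cluster (Mmp13, Mmp12, Mmp1b, Mmp3, Mmp1a, Mmp10 and Mmp7), where 5.2% of all 32851 windows held it. The site began 35 bases before the annotated start in Mmp13, 46 in Mmp3, 63 in Mmp10 and 73 in Mmp1a. The TATA box was in 12 of the 39 member windows, beside 13.6% of all windows, and every cluster gene of the set held one. The GC box was in 22 of the 39 member windows, beside 35.7% of all windows. Genes that held both the AP-1 site and the TATA box included 1 that was high in heart, 1 that was low in heart and 3 that were detected on no array. A match to letters is a description of the window and does not show binding.

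Mmp3 (stromelysin-1), which cleaves proteoglycans and activates other metalloproteinase precursors, had bone marrow levels of 6.60, 6.62, 6.66 and 6.86 (log2 intensity). Its heart levels were 9.02, 10.12, 10.23 and 9.36, and its kidney levels 6.49, 6.75, 6.24 and 6.37. All heart arrays lay above all others, although they spread over more than a log2 unit, and bone marrow and kidney overlapped. Heart minus bone marrow was 3.00 ± 0.21 (adjusted p = 2.51e-10) and kidney minus heart -3.22 ± 0.21 (adjusted p = 1.29e-10), while kidney minus bone marrow was -0.22 ± 0.21 (limma adjusted p = 0.425). All 3 Mmp3 probe entries gave a rise in heart, from 2.79 to 3.45. Without background correction the Mmp3 difference was 2.14 for heart minus bone marrow and -2.24 for kidney minus heart.

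Mmp13 (collagenase-3), which cuts fibrillar collagen, had bone marrow levels of 8.96, 8.56, 8.78 and 8.78 and kidney levels of 9.33, 9.19, 8.86 and 9.02. On the heart arrays the Mmp13 levels were 6.24, 6.08, 5.88 and 6.06, all below every other array. The difference of heart from bone marrow was -2.71 ± 0.13 (adjusted p = 9.47e-13) and kidney minus heart 3.04 ± 0.13 (adjusted p = 2.81e-13). Kidney minus bone marrow was 0.33 ± 0.13 with overlapping arrays (adjusted p = 0.048), and this call was lost on leaving out any of 8 arrays in turn (limma adjusted p from 0.0511 to 0.152) and without the detection filter (0.105). Of the 3 Mmp13 entries only this one was retained, since another was detected on 2 kidney arrays and the remaining one on none. Without background correction the Mmp13 difference of heart from bone marrow was -1.63.

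Mmp10 (stromelysin-2) had levels of 6.39, 5.97, 6.34 and 5.25 in bone marrow, 6.79, 6.35, 6.33 and 6.45 in heart, and 7.22, 7.09, 6.54 and 6.90 in kidney. Kidney minus bone marrow was 0.95 ± 0.22 (adjusted p = 0.00171), with no overlap, whereas the heart arrays overlapped both. Mmp1a, a collagenase of mouse, had a mean level of 6.82 for bone marrow, 6.85 for heart and 6.84 for kidney, and its differences were at most 0.03 in size with an SE of 0.18. The second retained Mmp1a entry was not called either, at -0.17 ± 0.26 in heart and -0.56 ± 0.26 in kidney against bone marrow, and -0.39 ± 0.26 in kidney against heart.

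**Figure D4:**
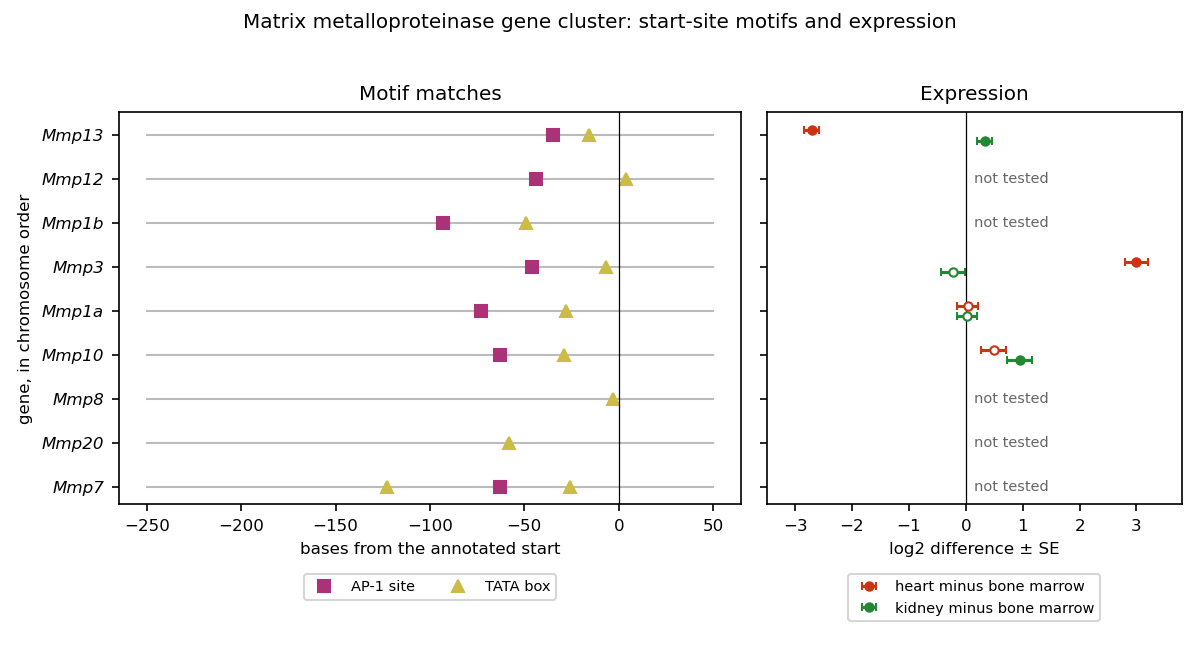
Left, position of AP-1 and TATA matches in the window from 250 bases before to 50 after the annotated start of the 9 cluster genes, by distance of the first matched base. Right, log2 difference from bone marrow ± SE (filled where called, n = 4 arrays per tissue), where Mmp3 and Mmp13 lie at opposite ends in heart cells and 5 genes were not tested.

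Among the remaining metalloproteinases outside the cluster, other than Mmp14, Mmp16, Mmp17 and Mmp24 below, the differences were smaller than 2-fold. Mmp2 (gelatinase A), which degrades denatured collagen and basement membrane, was highest in kidney cells, and Mmp23 and Mmp11 (stromelysin-3) also differed. Mmp2 levels were 13.28, 13.65, 13.74 and 13.84 in bone marrow, 13.22, 13.45, 13.31 and 13.17 in heart and 14.33, 14.25, 14.05 and 14.16 in kidney (log2 intensity). All kidney arrays lay above all others, and bone marrow and heart overlapped. Kidney minus bone marrow was 0.57 ± 0.10 (adjusted p = 0.000104) and kidney minus heart 0.91 ± 0.10 (adjusted p = 2.36e-07), and heart minus bone marrow was -0.34 ± 0.10 (adjusted p = 0.0061). Mmp11 was higher in kidney than in bone marrow by 0.45 ± 0.10 (adjusted p = 0.00152) and than in heart by 0.46 ± 0.10 (adjusted p = 0.0012). Mmp23 was higher in heart than in bone marrow by 0.67 ± 0.08 (adjusted p = 4.43e-07), with kidney minus heart at -0.84 ± 0.08 (adjusted p = 2.90e-08).

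Mmp9 (gelatinase B) had mean levels close to the detection floor (6.19 in bone marrow, 5.64 for heart, 5.91 for kidney), where that floor was 5.53 to 5.69 on the log2 scale. It was lower in heart than in bone marrow by limma (-0.55 ± 0.17, adjusted p = 0.0089). Mmp28 (epilysin) was higher in kidney than in heart (0.57 ± 0.20, adjusted p = 0.0245), with 1 of its 4 entries retained. Heart replicate 3 read 5.90 for Mmp28, against 6.65 to 6.95 on the other heart arrays. Mmp19 lay below the mean lowest detected signal in every tissue and gave no fold change.

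Of the membrane-bound metalloproteinases, Mmp16 was detected on its brighter probe on the heart arrays alone, Mmp17 was highest in kidney cells, and Mmp14 did not pass the test in any comparison. Mmp14 (MT1-MMP) activates the Mmp2 precursor at the cell surface and cuts fibrillar collagen. Its levels were 14.16, 14.59, 14.54 and 14.65 in bone marrow, 14.17, 14.48, 14.32 and 14.28 in heart and 14.46, 14.35, 14.24 and 14.28 in kidney (log2 intensity), and the 3 tissues overlapped. The Mmp14 difference from bone marrow was -0.17 ± 0.09 in heart (limma adjusted p = 0.123) and -0.15 ± 0.09 in kidney (adjusted p = 0.189), and kidney minus heart was 0.02 ± 0.09 (adjusted p = 0.893).

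Mmp16 (MT3-MMP) had heart levels of 9.75, 9.88, 9.72 and 9.66, bone marrow levels of 5.19, 5.30, 4.97 and 4.80 and kidney levels of 5.26, 5.40, 5.23 and 5.31. On this probe no bone marrow or kidney array was detected, so the fold is a bound, taken per dim array against its detection floor or the probe's reading, whichever was higher. This probe met the detection filter through the heart arrays alone, so a difference was built into its passing. Mmp16 was at least 17-fold higher in heart than in bone marrow (adjusted p = 1.18e-15) and at least 17.8-fold higher than in kidney (adjusted p = 4.53e-15). The fitted means were 9.75 in heart, 5.06 in bone marrow and 5.30 in kidney. Without background correction the Mmp16 log2 difference was 2.86 for heart minus bone marrow and -2.75 for kidney minus heart. The bounds therefore hold only for the background-corrected values of this probe. A second probe was detected on 4 heart, 3 kidney and 0 bone marrow arrays, with mean levels of 8.90 in heart, 5.59 in kidney and 4.98 in bone marrow. Its kidney mean lay within the range of the detection floor (5.53 to 5.69 over the arrays), so kidney and bone marrow are not compared on it.

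Mmp17 (MT4-MMP), which is held to the membrane by a lipid anchor, had kidney levels of 9.70, 9.31, 9.49 and 9.30. Its bone marrow levels were 7.09, 7.34, 7.66 and 7.74 and its heart levels 7.86, 7.66, 7.77 and 7.51, so that kidney stood apart and the other tissues overlapped. Kidney minus bone marrow was 1.99 ± 0.15 (3.97-fold, adjusted p = 9.97e-10) and kidney minus heart 1.75 ± 0.15 (adjusted p = 5.47e-09). Mmp24 (MT5-MMP) was higher in heart than in bone marrow by 0.34 ± 0.08 (adjusted p = 0.00169), with 1 of its 4 entries retained.

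Of 11 tested ADAMTS proteases, 5 passed in no comparison. Adamts9 and Adamts1, which cleave versican, were highest in heart cells, and Adamts12 and Adamts6 were highest in kidney cells. Adamts9 levels were 6.16, 6.95, 7.16 and 7.53 in bone marrow, 9.95, 10.23, 10.30 and 9.73 in heart, and 7.63, 7.96, 8.31 and 8.10 in kidney (log2 intensity). The tissues did not overlap, and bone marrow replicate 1 was the lowest array. Heart minus bone marrow was 3.10 ± 0.22 (8.6-fold, adjusted p = 2.79e-10), kidney minus bone marrow 1.05 ± 0.22 (adjusted p = 0.00056) and kidney minus heart -2.05 ± 0.22 (adjusted p = 1.56e-07). Without bone marrow replicate 1 the first 2 were 2.84 and 0.79. Heart minus bone marrow was 2.31 without background correction. The second Adamts9 probe, near the lowest detected signal in bone marrow, gave 0.74 ± 0.18 for heart minus bone marrow, and the mean of both probes 1.92. For kidney minus bone marrow the second probe gave 0.16 ± 0.18 and was not called (limma adjusted p = 0.5), the mean of both gave 0.61, and the brighter probe without background correction 0.63.

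Adamts1 levels were 8.22, 8.82, 9.09 and 9.01 in bone marrow, 9.76, 10.00, 10.01 and 9.50 in heart, and 7.51, 8.06, 8.24 and 8.22 in kidney. Heart lay above both other tissues, and the lowest bone marrow array fell within the kidney range. For Adamts1 heart minus bone marrow was 1.03 ± 0.18 (adjusted p = 7.38e-05) and kidney minus heart -1.81 ± 0.18 (adjusted p = 8.47e-08). The heart minus bone marrow difference was 0.84 without bone marrow replicate 1 and 0.87 without background correction, both under 2-fold. Kidney minus bone marrow was -0.78 ± 0.18 (adjusted p = 0.00178), called on 2 of the 3 Adamts1 probes. Adamts4, an aggrecanase, was lower in kidney than in bone marrow (-0.37 ± 0.10, adjusted p = 0.00647) and than in heart (-0.48 ± 0.10, adjusted p = 0.000665).

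Adamts12, which cleaves the cartilage protein COMP, had levels of 10.44, 10.84, 11.05 and 11.22 in bone marrow, 10.28, 10.23, 10.08 and 10.10 in heart, and 11.80, 12.06, 12.02 and 12.17 in kidney. No tissue overlapped another. Kidney minus heart was 1.84 ± 0.13 (3.59-fold, adjusted p = 2.59e-10), kidney minus bone marrow 1.13 ± 0.13 (adjusted p = 3.94e-07) and heart minus bone marrow -0.72 ± 0.13 (adjusted p = 6.22e-05). A second Adamts12 probe near background did not pass in any comparison, and the mean of both gave 1.06 for kidney minus heart. Adamts6 ran the same way, with levels of 7.22, 7.38, 7.81 and 7.66 in bone marrow, 7.04, 6.96, 7.08 and 6.97 in heart, and 8.26, 8.50, 8.62 and 8.42 in kidney. Its kidney minus heart difference was 1.44 ± 0.14 (adjusted p = 4.29e-08), and heart minus bone marrow was -0.51 ± 0.14 (adjusted p = 0.00401), a call lost with the mean of the 3 probes (-0.27, limma adjusted p = 0.152). Kidney minus heart was 1.05 with that mean and 0.95 without background correction, the latter under 2-fold. On 1 of the 3 Adamts6 probes it was not called (0.30 ± 0.26).

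Adamts7, another COMP-cleaving enzyme, was lower in heart (-0.70 ± 0.15, adjusted p = 0.000395) and in kidney (-0.80 ± 0.15, adjusted p = 0.000168) than in bone marrow, without overlap. Adamts8, Adamts10, Adamts13, Adamts15 and Adamts17 did not pass in any comparison on their brightest probe, with mean levels of 5.34 to 6.54, although 1 of 4 Adamts10 probes was higher in kidney than in both other tissues. Adamts8 lay below the mean lowest detected signal in every tissue, Adamts13 in heart and Adamts17 in bone marrow. For these a missing call does not show equal expression.

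Both detected ADAMTS-like genes were highest in heart cells. Adamtsl3 had heart levels of 11.00, 11.18, 11.24 and 11.03, bone marrow levels of 7.84, 7.56, 7.53 and 7.59 and kidney levels of 6.63, 6.76, 7.03 and 6.81 (log2 intensity), with no overlap. Heart minus bone marrow was 3.48 ± 0.12 (11.2-fold, adjusted p = 3.07e-15), kidney minus heart -4.30 ± 0.12 (adjusted p = 2.14e-16) and kidney minus bone marrow -0.82 ± 0.12 (adjusted p = 9.22e-06). The second retained Adamtsl3 entry, under the same identifier, gave 0.95 ± 0.16, -0.70 ± 0.16 and 0.25 ± 0.16, so the size of the heart excess depended on the probe, and the fall in kidney against bone marrow was seen on 1 of 2.

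Adamtsl4, whose protein binds fibrillin fibres, had levels of 9.44, 9.02, 9.36 and 9.34 in bone marrow, 11.39, 11.38, 11.49 and 11.32 in heart, and 9.73, 9.62, 9.76 and 9.56 in kidney. The tissues did not overlap. Adamtsl4 in heart minus bone marrow was 2.11 ± 0.10 (4.31-fold, adjusted p = 2.76e-13), kidney minus bone marrow 0.38 ± 0.10 (adjusted p = 0.00275) and kidney minus heart -1.73 ± 0.10 (adjusted p = 1.08e-11).

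Pcolce2 and Htra1 both ran from kidney through bone marrow down to heart. Pcolce2 is an enhancer of the enzymes that trim the C-terminal propeptide from procollagen. It had kidney levels of 11.32, 11.32, 11.33 and 11.42, bone marrow levels of 10.35, 9.91, 9.62 and 9.61 and heart levels of 6.80, 6.71, 6.56 and 6.85 (log2 intensity). Kidney minus heart was 4.61 ± 0.13 (24.5-fold, adjusted p = 5.71e-16), heart minus bone marrow -3.14 ± 0.13 (adjusted p = 9.67e-14) and kidney minus bone marrow 1.47 ± 0.13 (adjusted p = 2.08e-08). The second entry gave 4.74, -2.89 and 1.84. Without background correction the Pcolce2 differences were 3.65, -2.28 and 1.37 in the same order. Pcolce, the related enhancer, varied far less, with levels of 13.74, 14.03, 13.90 and 13.93 in bone marrow, 13.61, 13.68, 13.64 and 13.59 in heart, and 13.38, 13.41, 13.30 and 13.48 in kidney. Its order was bone marrow, heart, kidney without overlap, with heart minus bone marrow at -0.27 ± 0.07 (adjusted p = 0.00194), kidney minus bone marrow at -0.51 ± 0.07 (adjusted p = 4.27e-06) and kidney minus heart at -0.24 ± 0.07 (adjusted p = 0.00647).

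Htra1, a secreted serine protease that cuts fibronectin and proteoglycans, had kidney levels of 12.79, 12.77, 12.85 and 12.82, bone marrow levels of 11.27, 11.55, 11.28 and 11.25 and heart levels of 9.57, 9.72, 9.59 and 9.66. Kidney minus heart was 3.17 ± 0.08 (9.01-fold, adjusted p = 5.82e-17), heart minus bone marrow -1.70 ± 0.08 (adjusted p = 3.65e-13) and kidney minus bone marrow 1.47 ± 0.08 (adjusted p = 7.16e-12). The second Htra1 entry gave 3.03, -1.62 and 1.42. Htra3, a related protease, had levels of 9.40, 9.57, 9.64 and 9.67 in bone marrow, 9.56, 9.49, 9.46 and 9.17 in heart, and 8.44, 8.85, 9.00 and 8.82 in kidney. All kidney arrays of Htra3 were below all others, with kidney minus bone marrow at -0.79 ± 0.12 (adjusted p = 2.47e-05) and kidney minus heart at -0.64 ± 0.12 (adjusted p = 0.000184). Heart minus bone marrow was -0.15 ± 0.12 and did not pass (limma adjusted p = 0.322).

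Genes that work beside these enzymes were read from 8 lists. For comparison with the counts that follow, 26.4% of all genes were called higher and 29.6% lower in heart than in bone marrow, 19.9% and 24.3% in kidney than in bone marrow, and 24.9% and 24.1% in kidney than in heart. The tolloid proteinases, which are the enzymes that Pcolce and Pcolce2 enhance, split. Of 2 tested, Tll1 was at least 8.31-fold higher in heart (adjusted p = 8.18e-14) and at least 3.41-fold higher in kidney (adjusted p = 6.85e-11) than in bone marrow, where it was not detected. Tll1 met the detection filter through the heart and kidney arrays alone, so a difference from bone marrow was built into its passing. Bmp1 was lower in heart (-1.10 ± 0.09, adjusted p = 3.90e-09) and in kidney (-0.66 ± 0.09, adjusted p = 8.96e-06).

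Of 4 tested cell-surface regulators, 3 were higher in heart than in bone marrow and 0 lower, 1 was higher in kidney and 0 lower, and all 4 were lower in kidney than in heart, beside 26.4% of all genes higher in heart, 19.9% higher in kidney and 24.1% lower in kidney than in heart. Reck, a membrane-anchored inhibitor of metalloproteinases, was higher in heart by 1.91 ± 0.14 (adjusted p = 9.38e-10), Cav1 by 1.17 ± 0.07 (adjusted p = 1.56e-11) and Cd44, which tethers metalloproteinases at the surface, by 0.69 ± 0.10 (adjusted p = 4.82e-06). The median difference of this list was 0.93 for heart minus bone marrow, beside -0.03 over all genes.

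In the plasminogen activator system, 1 of 5 tested genes was higher and 2 lower in heart than in bone marrow, and 2 were higher and 2 lower in kidney, where 56% and 44.2% of all genes were called in either direction. Serpinb2, an inhibitor of plasminogen activators, was lower in heart (-1.47 ± 0.35, adjusted p = 0.00119) and higher in kidney (2.80 ± 0.35, adjusted p = 1.64e-06). Plaur, the urokinase receptor gene, was higher in heart (1.11 ± 0.15, adjusted p = 4.43e-06) and kidney (1.46 ± 0.15, adjusted p = 2.12e-07), and Plau, urokinase itself, was lower in kidney (-1.02 ± 0.09, adjusted p = 3.05e-08). Of 3 tested proprotein convertases, which activate membrane-type metalloproteinases, Pcsk6 was higher in heart (1.55 ± 0.09, adjusted p = 3.22e-11), and 1 was higher and 1 lower in kidney than in bone marrow.

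Of 6 tested membrane ADAM proteases, 3 were higher and 1 lower in heart, and 4 higher and 2 lower in kidney, than in bone marrow, beside 26.4% and 29.6% of all genes in heart and 19.9% and 24.3% in kidney. Adam23, an ADAM without protease activity, was higher in heart (2.22 ± 0.16, adjusted p = 5.36e-10) and lower in kidney (-2.01 ± 0.16, adjusted p = 4.39e-09). Adam12 ran the other way, lower in heart (-1.12 ± 0.17, adjusted p = 1.24e-05) and higher in kidney (0.77 ± 0.17, adjusted p = 0.00107), and Adam9 was higher in both, by 0.97 ± 0.13 and 1.19 ± 0.13 (limma adjusted p = 1.64e-06 and 2.08e-07).

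Of 9 tested cathepsin and cystatin genes, 5 were higher and 1 lower in heart, and 3 higher and 1 lower in kidney, than in bone marrow, beside the same shares of all genes (26.4%, 29.6%, 19.9% and 24.3%). Ctsh was higher in kidney by 0.94 ± 0.08 (adjusted p = 4.05e-09) and was the 1 gene lower in heart (-0.42 ± 0.08, adjusted p = 8.78e-05). Ctsd was higher in heart (0.70 ± 0.15, adjusted p = 0.000508) and kidney (0.53 ± 0.15, adjusted p = 0.00693). Ctsk was higher in heart (0.62 ± 0.09, adjusted p = 4.81e-06) and, with overlapping arrays, in kidney (0.22 ± 0.09, adjusted p = 0.0427). Vcan, the versican substrate of the Adamts proteases and the 1 tested hyalectan, was lower in heart (-0.42 ± 0.16, adjusted p = 0.0369) and in kidney (-0.76 ± 0.16, adjusted p = 0.000788), although in both cases its arrays overlapped those of bone marrow. Of 3 tested relatives of the Adamts-like and HtrA genes, Thsd4 was at least 1.38-fold higher in heart (limma adjusted p = 0.0212). That fold is a bound, whereas the adjusted p belongs to the fitted difference from bone marrow (0.57 ± 0.20). Thsd4 reached detection on all 4 arrays from heart, on 3 from kidney and on only 1 from bone marrow. Heart alone could thus carry it past the detection filter, so a difference from bone marrow was partly built into its passing. Htra2 was lower in heart (-0.36 ± 0.07, adjusted p = 0.000262) and kidney (-0.50 ± 0.07, adjusted p = 1.21e-05).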

How the data were processed

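Members were all probes whose platform annotation symbol fits the families named above. They and the lists of related genes were chosen with earlier results of these data known. Per the labels, RNA was amplified and biotin-labelled for Illumina arrays. The deposited table gives raw, non-normalized intensity per probe (per the file headers) and a deposited detection fraction from 0 to 1, which rises with the signal and was read as 1 minus a detection p. Of 35746 identifiers, 6798 have several entries, each kept as a probe. The authors' processed intensity (tool lumi, per the submitters' processing notes) was an alternative, and for a repeated identifier it holds the first entry only. Its settings are not given here.

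With limma 3.58.1 in R 4.3.3, intensities were background-corrected and quantile-normalized (neqc, offset 16) and put on the log2 scale. Entries with a detection fraction over 0.95 on at least 4 of 12 arrays were kept (20649). The brightest kept entry stood for each of 10797 genes. One model with a mean per tissue (lmFit, eBayes with trend) gave 3 comparisons and an F test, and a second fit used all kept entries. A bound replaced the fold if the dimmer tissue had no detected probe or a mean under the detection floor. Values on every array are given for the Timp, Htra and Pcolce genes and for other members past the threshold and 2-fold. Values are given in the same way for Mmp2, Mmp10 and Mmp14, chosen after their values were seen. Of each related list, up to 3 genes with the largest called change are named. The number of arrays limits the precision. The fit was tested on simulated data. Alternatives were other background and normalization settings, filters, probe rules and values, no variance trend, a replicate block, and leaving out each array. Promoter windows came from RefSeq (GRCm38.p6).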

Additional observations from a re-analysis of the deposited data

Results flagged for a closer look

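In 4 of 51 groups of 4 arrays (17 genes in 3 tissues), 1 array stood far from the other 3 by Dixon's criterion, which chance meets in about 1 of 20 groups. Timp3 on bone marrow replicate 1 had a log2 intensity of 11.88, against 11.34 to 11.35 on the other bone marrow arrays. Htra1 on bone marrow replicate 2 read 11.55, against 11.25 to 11.28. Pcolce2 on kidney replicate 4 read 11.42, against 11.32 to 11.33, and Timp1 on kidney replicate 4 read 15.52, against 15.67 to 15.70. Without bone marrow replicate 1 the Timp3 difference from bone marrow was 2.80 in heart and 2.93 in kidney.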

How the results depend on the processing

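Counts of called genes and probe entries stayed within 1.5 times their value under every alternative run. Leaving out each array gave 20 to 23 called genes for heart against bone marrow, 19 to 22 for kidney against bone marrow and 20 to 22 for kidney against heart. Called entries numbered 30 to 35, 28 to 31 and 31 to 34 in that order, and genes past the F test 24 to 28. With the replicate block the called genes were 21, 20 and 21. Deviations of same-numbered arrays correlated from -0.20 to 0.13, above 0.1 for 1 of 12 pairs, and 4 of 12 arrays correlated best with their own number, so the numbers were not treated as pairs. On the authors' deposited intensities Adamtsl3 in kidney minus bone marrow reversed to 0.26 (limma adjusted p = 0.221) and heart minus bone marrow was 0.97, since that table holds only the dimmer entry. Mmp13 was not tested on those values. When retained probes were averaged per gene, the Adamtsl3 call for kidney against bone marrow was lost (-0.28, limma adjusted p = 0.057). Leaving out any heart array dropped the brighter Mmp16 probe from the filter. Mmp16 in kidney minus bone marrow then passed on the other probe, as it did with averaged probes, but bone marrow was not detected on either probe and no difference is given. Dim probes limit what could be tested.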
